A study of Mus musculus with 57 samples.

Results

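Hearts of mice killed 5 days after doxorubicin (Doxo, an anthracycline used against cancer) were compared with hearts of vehicle-treated mice (Ctrl) across all measured genes. The hearts were those that the labels assign to the Doxo and the Ctrl group of the acute study, 13 and 14 respectively, which is 27 of the 57 hearts of the series. All were wild-type male C57BL/6J mice, bought at 9 weeks of age. Ctrl mice received saline intraperitoneally throughout, and Doxo mice received 1 intraperitoneal injection of 20 mg/kg Doxo in addition to the same saline injections. Some Doxo mice died before day 5, so the Doxo hearts came from survivors. Whole-heart poly(A) RNA was sequenced, and reads had been counted per gene. The 13 hearts that received Doxo with nicotinamide mononucleotide were not compared. They entered the low-count filter, the normalization and the estimate of the spread. In the chronic study 20 mg/kg Doxo was split over 5 injections and hearts were taken at day 60. Its hearts served only to set the acute change against the chronic one.

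Doxo inserts into DNA and traps topoisomerase II on it, which leaves DNA breaks and activates p53. Its quinone ring cycles between reduced and oxidized forms and generates reactive oxygen species, and heart muscle, rich in mitochondria, is the tissue in which the drug's toxicity limits its use. A sick animal that eats little also raises glucocorticoids and acute phase proteins, and the heart is known to answer haemodynamic load and injury with a set of stress genes that includes the slow myosin gene Myh7. The bone marrow is sensitive to the drug as well, and blood cells remaining in the heart contribute RNA to a whole-heart library.

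Total counts were between 32409622 and 43907454 per Ctrl heart and between 34707890 and 48122748 per Doxo heart. At these depths 3 counts, the smallest value read as present, correspond to at most 0.105 CPM (counts scaled by the size of the library). Cardiomyocyte markers summed to 69845 to 90250 CPM in Ctrl hearts and 40790 to 91744 CPM in Doxo hearts, high in every heart as in heart muscle. The library labelled Doxo replicate 6 stood apart from the other 12 Doxo hearts. On a scale where the Ctrl mean is 0 and the Doxo mean is 1, taken as the median over all genes called below, it lay at -0.0042 while Ctrl hearts lay between -0.057 and 0.036 and the other 12 Doxo hearts between 0.40 (replicate 7) and 1.46 (replicate 4). It was kept as labelled, and values without it are given where leaving it out changed the call of a named gene or moved a fold change or a count by over 1.5 times. Hearts also differed in how much atrium they held. The atrial gene Myl4 reached 100 CPM or more in 8 of 14 Ctrl and in 5 of 13 Doxo hearts, so each count was repeated within the hearts above and below that limit. In whole-heart RNA, fewer cells of a type and less RNA per cell cannot be told apart.

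Doxo changed the expression of a large part of the heart transcriptome, in both directions. Of 14240 genes tested, 4289 (30.1%) passed an adjusted p-value of 0.05 with a fold change of at least 1.5, of which 2090 (14.7% of the genes tested) were higher and 2199 (15.4%) lower in Doxo hearts. The median log2 fold change (log2 FC, Doxo over Ctrl) of all tested genes was -0.0016. With all 13 Doxo hearts kept, the larger changes were more often increases. At a fold of at least 4, 245 genes were higher and 94 lower, and at a fold of at least 16, 39 were higher and 9 lower. Doxo replicate 6, which lay at Ctrl level, limited how large a fold decrease could be. Without it the log2 FC went, for example, from -3.19 to -4.07 in H2-Ab1 and from -5.84 to -10.02 in Hbb-bs. The counts by fold were not repeated without that heart. Genes called higher took a median of 9.67% of all counts in Ctrl hearts (9.34 to 9.99%) and 19.6% in Doxo hearts (9.24 to 24.0%). Genes called lower went from a median of 10.3% (9.58 to 10.7%) to 4.80% (2.92 to 9.97%). Those shares describe genes selected for their change and carry no test.

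**Figure D1:**
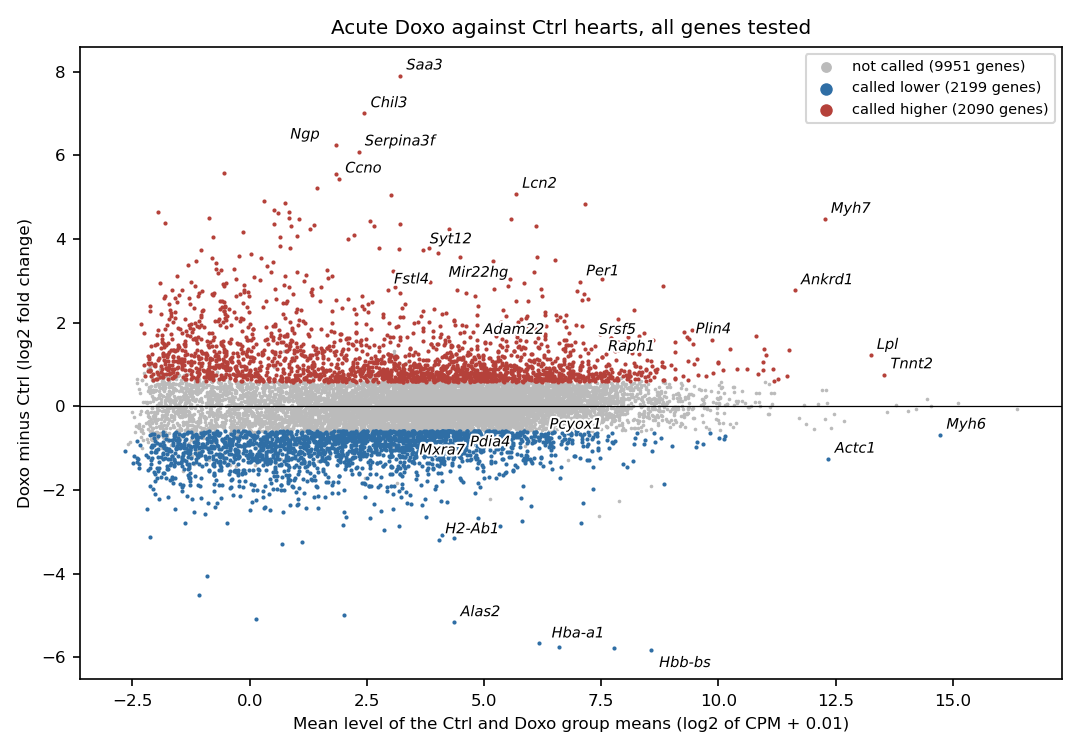
Log2 fold change of Doxo over Ctrl (vertical) against mean level (log2 CPM, horizontal) for the 14240 genes tested in acute hearts, with called genes in colour and some of the genes described in the text named. The 2090 higher and 2199 lower genes are about equal in number, and the genes with a change of 16 times or more lie mostly above 0 (39 against 9). Doxo replicate 6, at Ctrl level, is included and limits the fold of decreases.

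The increases with the smallest adjusted p-values were in genes of diverse function: a membrane protein, a microRNA host gene, a splicing factor, a clock gene and a lipid droplet protein. Adam22, a catalytically inactive member of the ADAM family that serves as a receptor at synapses, was 11.6 to 16.96 CPM in Ctrl hearts (median 14.9) and 18.5 to 71.6 CPM in Doxo hearts (median 40.2). All 13 Doxo hearts were above all 14 Ctrl hearts, as was the case for 0.435% of all tested genes. The log2 FC was 1.58 ± 0.12 (SE), with adjusted p = 1.11e-12 in edgeR's quasi-likelihood test, as for all adjusted p-values of the comparison. The other increases of this group left the Ctrl range in 12 of 13 Doxo hearts, which 8.1% of all tested genes did, and the exception was Doxo replicate 6.

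Mir22hg, the host transcript of miR-22, a microRNA abundant in heart and skeletal muscle, lay at 9.96 to 17.5 CPM in Ctrl hearts (median 13.3). Doxo hearts ranged from 17.3 to 206 CPM (median 105), and the lowest outside replicate 6 was 28.3 CPM. The groups overlapped only through replicate 6, and the log2 FC was 2.94 ± 0.22 (adjusted p = 1.11e-12). The gene spans chr11:75461539-75466676 on the plus strand of mm10, and the miR-22 hairpin lies inside an exon of it. The mature microRNAs themselves are not captured by poly(A) libraries, so their level was not measured. They are shown because the transcript that rose carries them, with the seed (bases 2 to 8) in capitals, from RefSeq on GRCm38.p6:
mmu-miR-22-5p (chr11:75463734-75463755): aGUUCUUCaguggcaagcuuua
mmu-miR-22-3p (chr11:75463772-75463793): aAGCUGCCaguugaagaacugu

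Srsf5, an SR protein that directs splice site choice, rose from 167 to 228 CPM in Ctrl hearts (median 197) to 203 to 800 CPM in Doxo hearts (median 611), a log2 FC of 1.58 ± 0.13 (adjusted p = 6.64e-12). Outside replicate 6 no Doxo heart was below 355 CPM. Raph1, an Ena/VASP-binding protein of lamellipodia, moved within a narrow band. It was 96.2 to 134 CPM in Ctrl hearts (median 112) and 118 to 346 CPM in Doxo hearts (median 250), and its log2 FC was 1.18 ± 0.09 (adjusted p = 1.78e-12). The 12 Doxo hearts other than replicate 6 differed by no more than 1.63 times among themselves in Raph1.

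Per1, a repressor of the circadian clock that glucocorticoids also induce, was 22.3 to 41.5 CPM in Ctrl hearts (median 27.9). In Doxo hearts it was 17.9 to 372 CPM (median 220), with replicate 6 below every Ctrl heart and the others at 73.0 CPM or above (log2 FC 2.98 ± 0.25, adjusted p = 9.34e-12). Syt12, a synaptotagmin involved in vesicle release, went from 1.35 to 2.55 CPM in Ctrl hearts (median 1.81) to 2.52 to 59.1 CPM (median 21.8). The log2 FC of Syt12 was 3.74 ± 0.31 (adjusted p = 9.34e-12). Plin4, which coats lipid droplets, rose from 293 to 388 CPM in Ctrl hearts (median 327) to 315 to 1434 CPM in Doxo hearts (median 1020), with a log2 FC of 1.6 ± 0.13 (adjusted p = 9.34e-12). Fstl4, a secreted follistatin-like protein, was 1.09 to 2.62 CPM in Ctrl hearts (median 1.98) and 2.27 to 20.02 CPM in Doxo hearts (median 13.03), with a log2 FC of 2.78 ± 0.23 (adjusted p = 9.34e-12).

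The 8 genes named for the size of their increase, with a mean of at least 5 CPM in Doxo hearts, were Saa3, Chil3, Ngp, Serpina3f, Cxcl2, Ccno, Hist1h4d and Lcn2. Lcn2, an iron-siderophore-binding acute phase protein, was the only one of these 8 above 1 CPM in every Ctrl heart. It was 1.55 to 6.78 CPM in Ctrl hearts (median 2.65) and 2.09 to 284 CPM in Doxo hearts (median 89.7), with 12 of 13 Doxo hearts above all Ctrl hearts (log2 FC 5.07 ± 0.56, adjusted p = 1.00e-09). Saa3, serum amyloid A made outside the liver, was at most 0.252 CPM in Ctrl hearts and had a median of 5.80 CPM in Doxo hearts. The Doxo hearts spread from 0.0498 CPM to 102 CPM in replicate 5, and 11 of 13 exceeded all Ctrl hearts (log2 FC 7.90 ± 1.12, adjusted p = 1.36e-07). Because most Ctrl hearts had fewer than 3 counts of Saa3, the fitted fold depends on the prior count of the fit and gives only the direction and rough size. It was 7.2 without replicate 5.

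Chil3, a chitinase-like protein of activated macrophages and neutrophils, was at most 0.252 CPM in Ctrl hearts. It reached 59.5 CPM in Doxo replicate 13, was 0 in replicate 6 and lay at 2.96 CPM or more in the other Doxo hearts (median 6.44, log2 FC 7.0 ± 0.64, adjusted p = 4.42e-11), and without replicate 13 the log2 FC was 6.32. Serpina3f, a serine protease inhibitor of a family of near-identical copies between which reads may be split, was at most 0.332 CPM in Ctrl hearts and 0.148 to 31.2 CPM in Doxo hearts (median 7.22, log2 FC 6.09 ± 0.63, adjusted p = 3.66e-10). Both genes exceeded the Ctrl range in 12 of 13 Doxo hearts. Ccno, an atypical cyclin required for multiciliated cells, exceeded it in 11 of 13 (Doxo median 3.46 CPM, Ctrl at most 0.460 CPM, log2 FC 5.44 ± 0.63, adjusted p = 3.04e-09).

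The remaining 3 of these increases rested on fewer hearts. The neutrophil granule gene Ngp left the Ctrl range in 7 of 13 Doxo hearts, with a Doxo median of 2.16 CPM and 57.5 CPM in replicate 13 (log2 FC 6.25 ± 0.96, adjusted p = 5.77e-07). Its log2 FC was 4.95 without that heart and 7.5 without Ctrl replicate 4. The neutrophil chemoattractant Cxcl2 also did so in 7, with a median of 2.46 CPM and 31.3 CPM in replicate 13 (log2 FC 5.55 ± 0.76, adjusted p = 6.34e-08). Hist1h4d, a histone H4 gene with near-identical copies, did so in 6, with a Doxo median of 0.281 CPM and 36.5 CPM in replicate 5 (log2 FC 5.23 ± 0.84, adjusted p = 1.26e-06, and log2 FC 4.21 without that heart). All 9 of the tested neutrophil markers were called higher in Doxo hearts, against 14.7% of all genes tested. The other members of the list, Ly6g and Camp, did not pass the low-count filter. Genes this low in Ctrl hearts may pass that filter through hearts in which they are high, so the count is no separate support. The list summed to 2.73 to 8.5 CPM in Ctrl hearts and 4.44 to 382 CPM in Doxo hearts, highest in replicate 13. The part of these cells in the changes of Chil3, Ngp, Lcn2, Saa3 and Cxcl2 was not tested.

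Among abundant transcripts, Myh7, Ankrd1, Tnnt2 and Lpl rose. Myh7, the slow beta-myosin heavy chain that the adult mouse ventricle expresses little, was 357 to 494 CPM in Ctrl hearts (median 433). Doxo hearts ranged from 453 CPM in replicate 6 to 18492 CPM (median 8388), and the other 12 hearts were at 3079 CPM or above. The log2 FC was 4.48 ± 0.44 (adjusted p = 1.43e-10). Ankrd1, a titin-associated protein induced by mechanical load, was 443 to 1096 CPM in Ctrl hearts (median 803) and 555 to 15786 CPM in Doxo hearts (median 4843). Only 11 Doxo hearts exceeded all Ctrl hearts in Ankrd1 (log2 FC 2.77 ± 0.44, adjusted p = 9.16e-07), since 1 heart beside replicate 6 lay at 669 CPM.

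Tnnt2, cardiac troponin T, increased from 7594 to 10448 CPM in Ctrl hearts (median 8676) to 8288 to 22545 CPM in Doxo hearts (median 14260), with a log2 FC of 0.76 ± 0.10 (adjusted p = 2.83e-08). Lpl, the lipase that releases fatty acids from circulating triglycerides, was 4624 to 7360 CPM in Ctrl hearts (median 5542) and 6388 to 20716 CPM in Doxo hearts (median 13568). Its log2 FC was 1.22 ± 0.12 (adjusted p = 1.63e-10). Both left the Ctrl range in every Doxo heart but replicate 6.

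The decreases with the smallest adjusted p-values included genes of protein folding, glycoprotein processing and intracellular traffic. Pcyox1, a lysosomal enzyme that degrades prenylated cysteines, was 88.4 to 102 CPM in Ctrl hearts (median 94.5) and 45.6 to 86.1 CPM in Doxo hearts (median 56.5). All 13 Doxo hearts were below all Ctrl hearts, which held for 0.471% of all tested genes, and replicate 6 was the highest of them (log2 FC -0.69 ± 0.06, adjusted p = 2.46e-11). Arap1, a GTPase-activating protein, was 28.4 to 36.2 CPM in Ctrl hearts (median 32.5) and 10.6 to 28.3 CPM in Doxo hearts (median 15.9), again without overlap (log2 FC -0.97 ± 0.10, adjusted p = 2.51e-10). Mxra7, named for matrix remodelling, was 13.96 to 17.7 CPM in Ctrl hearts (median 15.98) and 4.33 to 13.9 CPM in Doxo hearts (median 5.39). It fell by 1.30 ± 0.13 on the log2 scale (adjusted p = 2.75e-10), and the groups did not overlap.

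Pdia4, a protein disulfide isomerase of the endoplasmic reticulum, was 27.3 to 37.9 CPM in Ctrl hearts (median 31.95) and 9.24 to 29.4 CPM in Doxo hearts (median 13.3; log2 FC -1.11 ± 0.11, adjusted p = 2.20e-10). Man2a2, a Golgi mannosidase of N-glycan maturation, was 83.1 to 101 CPM in Ctrl hearts (median 92.6) and 42.5 to 90.2 CPM in Doxo hearts (median 48.9), with a log2 FC of -0.80 ± 0.08 (adjusted p = 3.66e-10). Dynll1, a dynein light chain, was 15.4 to 25.2 CPM in Ctrl hearts (median 19.3) and 4.55 to 17.2 CPM in Doxo hearts (median 6.996; log2 FC -1.35 ± 0.14, adjusted p = 3.74e-10). In each of these 3 genes 12 of 13 Doxo hearts were below the whole Ctrl range, which 6.84% of all tested genes were, and replicate 6 lay inside it.

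Genes of erythroid cells had the largest fold decreases among genes with at least 5 CPM in Ctrl hearts. The adult beta-globin Hbb-bs was 208 to 2052 CPM in Ctrl hearts (median 540) and 0.271 to 159 CPM in Doxo hearts (median 0.694), and the highest Doxo value was that of replicate 6. The log2 FC was -5.84 ± 0.92 (adjusted p = 8.13e-07) with that heart and -10.02 ± 0.51 (adjusted p = 1.08e-18) without it. Hba-a1, an alpha-globin, was 118 to 1207 CPM in Ctrl hearts and 0.347 to 93.8 CPM in Doxo hearts, with a log2 FC of -5.78 ± 0.83 (adjusted p = 1.53e-07). The other adult globins Hbb-bt (log2 FC -5.75 ± 0.79) and Hba-a2 (-5.67 ± 0.75) moved likewise, and reads of the near-identical alpha-globin pair, and of the beta-globin pair, may be split between copies. In these 4 genes all 13 Doxo hearts were below all Ctrl hearts, and without replicate 6 the log2 FC was -9.40 for Hba-a1, -9.80 for Hbb-bt and -9.41 for Hba-a2.

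Alas2, the erythroid enzyme that starts haem synthesis, was 11.9 to 111 CPM in Ctrl hearts (median 27.2) and 0.0795 to 8.67 CPM in Doxo hearts (median 0.471; log2 FC -5.17 ± 0.49, adjusted p = 9.19e-11). The groups did not overlap, and without replicate 6 the log2 FC of Alas2 was -6.40. The 8 erythroid markers tested were all lower in Doxo hearts, against 15.4% of all genes tested. The list summed to 441 to 4340 CPM in Ctrl hearts, 1.38 to 4.08 CPM in 12 Doxo hearts and 341 CPM in replicate 6. The amount of blood in each heart was not measured.

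The antigen-presenting MHC class II genes fell. H2-Ab1 was 18.5 to 42 CPM in Ctrl hearts (median 29.7) and 0.644 to 20.98 CPM in Doxo hearts (median 1.63), with a log2 FC of -3.19 ± 0.42 (adjusted p = 4.14e-08). H2-Aa was 23.5 to 50.2 CPM in Ctrl hearts (median 37.5) and 0.839 to 24.7 CPM in Doxo hearts (median 1.80), with a log2 FC of -3.16 ± 0.41 (adjusted p = 3.04e-08). Replicate 6 was the highest Doxo heart in both and the only one inside the Ctrl range. Without it the log2 FC was -4.07 for H2-Ab1 and -3.95 for H2-Aa. The macrophage markers summed to 258 to 390 CPM in Ctrl hearts and 167 to 421 CPM in Doxo hearts. Of the 12 tested, 4 (33.3%) were lower, against 15.4% of all genes. The B cell markers summed to 7.21 to 12.6 CPM in Ctrl hearts and 1.83 to 73.3 CPM in Doxo hearts, with medians of 9.03 and 3.34 CPM. The part of these cells in the class II decrease was not tested.

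Among abundant transcripts, Myh6, Actc1, Oxct1 and Gsn fell, and in each at least 1 Doxo heart was not below the Ctrl range. Myh6, the fast alpha-myosin heavy chain of the adult mouse heart, was 30283 to 37059 CPM in Ctrl hearts (median 33760) and 7283 to 37460 CPM in Doxo hearts (median 19743). Of the Doxo hearts 10 were below and 1 was above all Ctrl hearts (log2 FC -0.69 ± 0.18, adjusted p = 8.75e-04). Actc1, cardiac alpha-actin, was 5339 to 9151 CPM in Ctrl hearts (median 7407) and 975 to 9384 CPM in Doxo hearts (median 2480; log2 FC -1.26 ± 0.25, adjusted p = 4.31e-05). The highest Doxo value of Actc1 was that of replicate 6, and the other 12 hearts were below the Ctrl range. Oxct1, the enzyme that lets the heart use ketone bodies, was 1085 to 1794 CPM in Ctrl hearts and 453 to 1649 CPM in Doxo hearts, and 9 Doxo hearts were below the Ctrl range (log2 FC -0.71 ± 0.16, adjusted p = 1.65e-04). Gsn, the actin-severing protein gelsolin, was 869 to 1871 CPM in Ctrl hearts and 447 to 1756 CPM in Doxo hearts, with 8 hearts below the Ctrl range (log2 FC -0.79 ± 0.18, adjusted p = 1.66e-04). Within the hearts with high atrial marker counts, Myh6 (log2 FC -0.57, adjusted p = 0.00321) and Gsn (-0.58, adjusted p = 0.00335) no longer reached the fold limit.

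**Figure D2:**
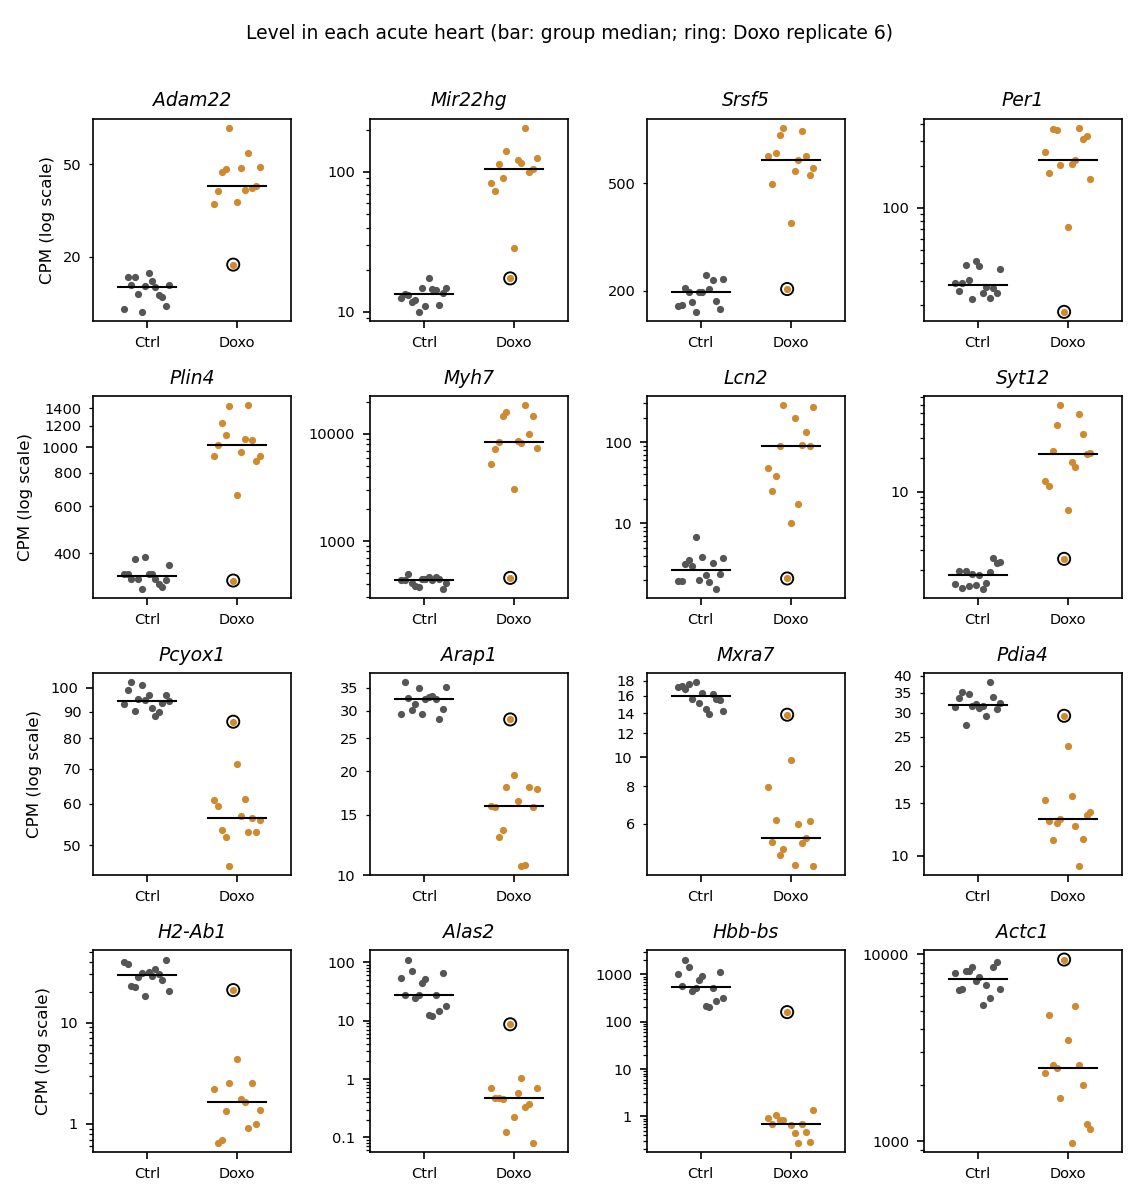
Expression (CPM, log axis) of 16 genes in each of the 14 Ctrl and 13 Doxo hearts, 1 point per heart, with the bar at the median and a ring around Doxo replicate 6. That heart lies at or near the Ctrl points in most panels, for example at 453 CPM of Myh7 where the other Doxo hearts start at 3079 CPM, and the groups are separate without it in every gene shown.

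Lists of stress hormone, immediate early and acute phase genes held a larger share of genes called higher than the 14.7% of all tested genes. Of 21 glucocorticoid-induced genes tested, 15 were higher and 1 lower, with a median log2 FC of 1.39, and Angptl4, an inhibitor of Lpl, was the lower one (log2 FC -1.47). Mt1, a metallothionein that binds zinc and copper, rose from 88.0 to 148 CPM in Ctrl hearts to 99.1 to 2031 CPM in Doxo hearts (log2 FC 2.87 ± 0.30, adjusted p = 4.98e-10). Mt2, its neighbour and paralog, had a log2 FC of 4.30 ± 0.43, and Nfkbia, the inhibitor of NF-kappaB, 1.85 ± 0.20. Of 27 immediate early genes 17 were higher and 1, Egr3, lower (median log2 FC 1.07), and 2 were lower without replicate 6. They included the AP-1 subunit Fosl2 (2.76 ± 0.25), the anti-proliferative Btg2 (3.03 ± 0.30), the nuclear protein Csrnp1 (3.03 ± 0.29) and Ier3 (2.0 ± 0.19). Among cytokine, chemokine and acute phase genes, 20 of 39 were higher and 5 lower, with a median log2 FC of 0.78. Serpina3n, a protease inhibitor of the acute phase, was 5.38 to 16.4 CPM in Ctrl hearts and 7.03 to 809.5 CPM in Doxo hearts (log2 FC 4.84 ± 0.51, adjusted p = 4.62e-10). The cytokine signalling inhibitors Socs3 (4.30 ± 0.46) and Socs2 (1.37 ± 0.15) and the interleukin-4 receptor Il4ra (2.16 ± 0.22) also rose. Interferon-stimulated genes were called in 34.2%, near the 30.1% of all genes, with 7 of 38 higher and 6 lower. Ifit2 (log2 FC 0.96 ± 0.15) and Iigp1 (1.24 ± 0.20) rose, and the class II invariant chain Cd74 fell (-2.85 ± 0.40, and -3.63 without replicate 6). In the hearts with low atrial marker counts 3 of the interferon genes were higher.

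Clock genes showed increases beyond Per1. Of 19 tested, 9 were higher and 1, Npas2, lower, with a median log2 FC of 0.54. The repressors Per2 (log2 FC 1.94 ± 0.18, adjusted p = 8.76e-11), Cry2 (1.74 ± 0.16, adjusted p = 7.99e-11) and Ciart (2.46 ± 0.28, adjusted p = 1.89e-09) rose. The hour at which hearts were taken is not given in the sources used here, so a difference in the hour between groups was not tested. An E-box, CACGTG read on both strands, the sequence bound by the clock activators, occurred in the promoter window (250 bases before to 50 after a start site) of 5 of the 16 clock genes with a promoter in RefSeq (31.2%), against 11.4% of all 10802 tested genes with one, 10.6% of those called higher and 8.19% of those called lower. It also occurred in 23.8% of 21 immediate early promoters. The match is a description of these letters and no measure of binding. The E-boxes ahead of the start site of clock genes called higher are shown, 1 per gene, on the gene's strand with the motif in capitals (GRCm38.p6):
Per1 (chr11:69098771-69098800, plus strand): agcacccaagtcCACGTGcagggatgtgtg
Ciart (chr3:95882327-95882356, minus strand): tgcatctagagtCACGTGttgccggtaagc
Tef (chr15:81802534-81802563, plus strand): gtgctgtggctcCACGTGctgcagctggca

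Of 30 targets of NRF2, the transcription factor released from KEAP1 by electrophiles, 16 were higher and 1, Cbr1, lower (median log2 FC 0.65). Nqo1, a quinone reductase, was 29.5 to 49.6 CPM in Ctrl hearts and 47.9 to 615 CPM in Doxo hearts, with 1 heart inside the Ctrl range (log2 FC 2.68 ± 0.27, adjusted p = 2.68e-10). The ferritin heavy chain Fth1 (1.37 ± 0.13), Gstm1 (1.36 ± 0.13) and Gsta3 (1.66 ± 0.17), the latter pair from glutathione transferase families with close paralogs, also rose. The letters of the antioxidant response element, TGACNNNGC on both strands, occurred in 11 of the 25 NRF2 target promoters in the table, against 16.9% of all promoters, 18.4% of those called higher and 16.2% of those called lower. The same letters stood in 33.3% of the immediate early and in 4 of the 16 clock promoters, so they were not peculiar to NRF2 targets. The matches that lie ahead of the start site of targets called higher are shown on the plus strand, where each gene lies, with the motif in capitals:
Gclm, glutathione synthesis (chr3:122245412-122245441): cgctcccgggcGCACCGTCAactctcacga
Gsta3 (chr1:21240453-21240482): caactcaggcaTGACATTGCatttttcttc
Mgst1, a microsomal glutathione transferase (chr6:138140460-138140489): ggcggggcttgGCACGGTCAggaggcgggg
Txnrd1, thioredoxin reductase (chr10:82859103-82859132): actggatttttGCTTTGTCAttctgacacg
Gclm rose by a log2 FC of 2.01 ± 0.23, Mgst1 by 1.92 ± 0.20 and Txnrd1 by 1.47 ± 0.20. In all, 8 motifs were searched in 5 gene lists. The AP-1 letters TGAGTCA stood in 4.68% of all promoters, 6.09% of those called higher and 4.82% of those called lower. The cyclic AMP response element TGACGTCA stood in 3.37%, 3.47% and 2.77% of them, and the STAT spacing TTCNNNGAA in 8.16%, 9.42% and 7.59%. A TATA box, TATAAA, stood in 9.38%, 13.5% and 10.1%, and the short CCAAT box in 42.6%, 46.1% and 40.7%. The metal response element, searched as TGCGCNC and also as the variant TGCACNC, stood in 39.8%, 35.9% and 39.4%. Other lists also held letters not tied to them by name, for example the metal response element in 62.5% and the CCAAT box in 81.2% of the 16 clock promoters.

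Of 30 direct p53 targets tested, 12 were higher and 2 lower (median log2 FC 0.42), so 46.7% were called against 30.1% of all genes. Trp53inp1, which promotes p53 activity and autophagy, was 14.4 to 24.5 CPM in Ctrl hearts and 15.4 to 172 CPM in Doxo hearts (log2 FC 2.51 ± 0.23, adjusted p = 4.07e-11). The cell cycle inhibitor Cdkn1a rose from 47.8 to 77.5 CPM to 56.4 to 307 CPM (log2 FC 1.54 ± 0.17, adjusted p = 7.16e-10), and the desmosomal gene Perp by 0.97 ± 0.10. Members of the integrated stress response, in which ATF4 directs transcription, were higher in 11 of 30 and lower in 3 (46.7% called). The translation repressor Eif4ebp1 (1.68 ± 0.21), the phosphatase subunit Ppp1r15a (1.57 ± 0.16) and the amino acid transporter chain Slc3a2 (1.41 ± 0.14) rose, and Atf5 fell by 0.57 ± 0.08 on the log2 scale, short of the fold limit that it passed when any of 6 single hearts was left out (-0.59 to -0.64). Endoplasmic reticulum stress genes were called in 32%, near the 30.1% of all genes, with 4 of 25 higher and 4 lower. The cochaperone Dnajb9 (0.72 ± 0.08) and Selenos (0.63 ± 0.08) rose while Pdia4 and the chaperone Hyou1 (-0.98 ± 0.12) fell.

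Of 19 muscle atrophy genes 11 were higher and 1 lower (median log2 FC 0.96), led by the lysosomal protease Ctsl (1.68 ± 0.17, adjusted p = 3.35e-10) and the ubiquitin ligase subunit Fbxo31 (1.64 ± 0.18), with Trim54 (1.34 ± 0.15) and Cblb (1.54 ± 0.18). The lower one was the growth inhibitor Mstn (log2 FC -1.21), at most 1.38 CPM in any Ctrl heart. The lists of autophagy and ribosome biogenesis held calls at 31.2% and 25%, near or under the 30.1% of all genes. Of 32 autophagy genes 9 were higher and 1 lower, the former including Atg13 (1.35 ± 0.12, adjusted p = 3.20e-11), the mitophagy receptor Bnip3 (2.10 ± 0.20), the cargo receptor Sqstm1 (1.82 ± 0.21) and Map1lc3b (1.25 ± 0.14). Of 40 ribosome biogenesis genes 10 were higher and the rest were not called. Nop14 (0.97 ± 0.11), Wdr43 (0.88 ± 0.10), Gnl2 (0.86 ± 0.09) and Ncl, nucleolin (0.81 ± 0.09), led them. Of 30 heat shock chaperones 6 were higher and 7 lower (43.3% called). Hspb7, a small heat shock protein of heart muscle, rose (1.34 ± 0.15), and Fkbp4 (-1.31 ± 0.17), Dnaja1 (-0.83 ± 0.11) and Hspa4l (-0.65 ± 0.08) fell.

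Of 21 stretch and muscle stress genes, 11 were higher and 3 lower (median log2 FC 0.80), so 66.7% were called against 30.1% of all genes. Beside Myh7, the actin-binding Xirp1 rose from 207 to 350 CPM in Ctrl hearts to 285 to 2164 CPM in Doxo hearts (log2 FC 1.78 ± 0.24, adjusted p = 6.83e-08), Fhl1 by 1.65 ± 0.22 and the intermediate filament gene Des by 0.89 ± 0.11. Of 22 sarcomere genes, 6 were higher and 3 lower (median log2 FC 0.16), with 40.9% called. The Z-disc gene Tcap (1.03 ± 0.13) and the myofibril assembly gene Nrap (1.38 ± 0.18) rose. Genes of calcium handling were called in 3 of 24 (12.5%), under the share of all genes. The L-type channel Cacna1c rose by 0.70 ± 0.10, though it was not called in the hearts with high atrial marker counts, and the kinase subunit Camk2b fell by 0.80 ± 0.11. Mcu (-0.47 ± 0.07) and Asph (-0.48 ± 0.08) passed the adjusted p-value but not the fold limit. Of 32 ion channel and connexin genes 14 were lower and 1 higher (median log2 FC -0.50, 46.9% called), and 13 were lower within either atrial class. The potassium channels Kcnd2 (-0.84 ± 0.12, adjusted p = 2.36e-07) and Kcna5 (-0.91 ± 0.14) fell, while Trpm7 (0.49 ± 0.07) did not reach the fold limit. Of 23 adrenergic genes 2 were higher and 3 lower (21.7% called, under the share of all genes). The cAMP phosphodiesterase Pde4b rose by 1.62 ± 0.27, and the receptor Adrb1, 14.7 to 20.5 CPM in Ctrl hearts and 2.20 to 20.1 CPM in Doxo hearts, fell (log2 FC -1.16 ± 0.22, adjusted p = 1.62e-05). Cardiac transcription factor genes were called in 5 of 25 (20%), also under the share of all genes. The cofactor Ppargc1a, which drives mitochondrial biogenesis, fell from 251 to 697 CPM to 47.5 to 321 CPM (log2 FC -1.46 ± 0.23), Heyl by 1.04 ± 0.13, and Gata6 rose by 0.63 ± 0.11, though by 0.57 without Doxo replicate 3 and 0.58 without Doxo replicate 11, short of the fold limit.

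Lists of fuel use held calls at about the share of all genes or less. Of 27 fatty acid and fasting response genes 4 were higher and 3 lower, the latter 0 in hearts with low and 6 in hearts with high atrial marker counts. The fatty acid transporters Cd36 (0.53 ± 0.11) and Slc27a1 (0.53 ± 0.11) passed the adjusted p-value but not the fold limit. Of 25 glucose genes 2 were higher, the glycolytic activator Pfkfb3 (2.80 ± 0.29, adjusted p = 4.83e-10) and the transporter Slc2a1 (1.38 ± 0.14), and 3 lower, among them Pgam2 (-0.77 ± 0.12). Without replicate 6, 5 were lower. Of 20 cholesterol genes 3 were higher and 3 lower. Lss rose by 1.41 ± 0.16, while Dhcr7 (-1.39 ± 0.19) and Sc5d (-0.64 ± 0.10), which act late in the pathway, fell. Among 77 mitochondrial ribosomal protein genes 7 were called (9.09%, under the 30.1% of all genes), 6 of them lower, and 10 were lower without replicate 6. Mrpl19 (-1.0 ± 0.15) and Mrps6 (-0.75 ± 0.11) fell, and Mrpl33 rose by 0.80 ± 0.10. Of 25 metal and iron genes 8 were higher, among them ceruloplasmin, Cp (1.53 ± 0.15, adjusted p = 8.76e-11), and 5 lower. The metal and iron list was thus called in 52%, above the share of all genes.

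Of 38 collagen and matrix genes 24 were lower and 5 higher (median log2 FC -1.0). That is 76.3% called, against 30.1% of all genes, of which 15.4% were lower and 14.7% higher. Col1a1 was 82.5 to 139 CPM in Ctrl hearts and 2.17 to 94.1 CPM in Doxo hearts, with replicate 6 as the only Doxo heart inside the Ctrl range (log2 FC -2.39 ± 0.38, adjusted p = 1.19e-06). The microfibril gene Fbn1 (-1.24 ± 0.13, adjusted p = 7.03e-10), Sparc (-1.0 ± 0.12) and Loxl1 (-0.94 ± 0.12) fell, and Lox, which crosslinks collagen, rose (2.03 ± 0.23). The fibroblast markers summed to 766 to 1484 CPM in Ctrl hearts and 575 to 1561 CPM in Doxo hearts, and 7 of the 10 were lower. Dcn, decorin, another fibroblast gene, did not fall but lay at a median of 640 CPM against 532 CPM (log2 FC 0.50 ± 0.17, adjusted p = 0.0092, under the fold limit). Of 33 proliferation genes 13 were lower and 3 higher (48.5% called). The mitotic genes Cenpf (-1.59 ± 0.25) and Tpx2 (-1.61 ± 0.26) fell. The replication gene Mcm4 rose (0.76 ± 0.12), and Pcna was at 0.56 ± 0.08, under the fold limit that it passed without Doxo replicate 6 (0.60) and without Doxo replicate 7 (0.59). Growth factor and cardiokine genes were called in 43.9%. Of the 41 tested, 8 were higher, such as Bdnf (1.48 ± 0.20) and Pgf (1.03 ± 0.12), and 10 lower, such as Fstl1 (-1.36 ± 0.18) and Metrnl (-1.18 ± 0.15).

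**Figure D3:**
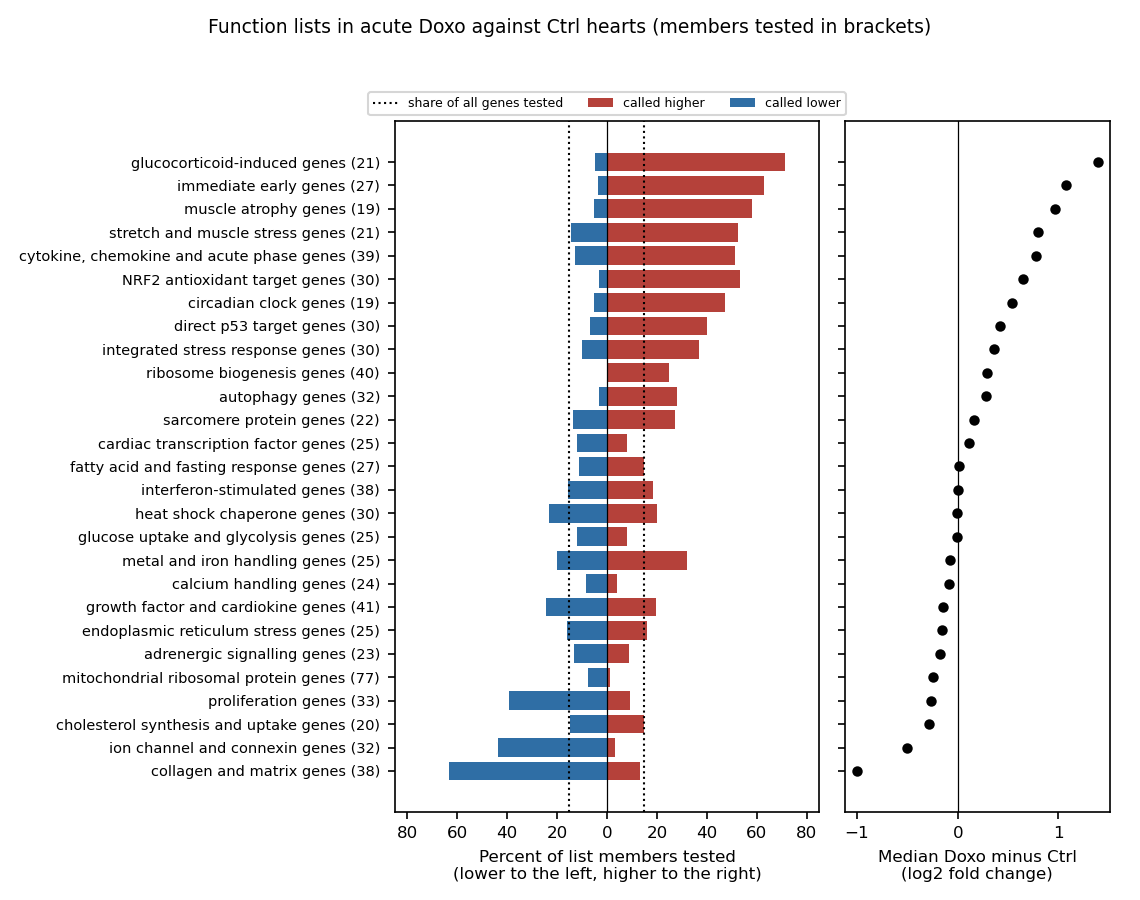
Left, percent of the tested members of each of the 27 function lists that were called lower (bars to the left) or higher (bars to the right) in Doxo hearts, with dotted lines at the shares of all tested genes (15.4% and 14.7%). Right, the median log2 fold change of each list, from 1.39 in the glucocorticoid-induced list to -1.0 in the collagen and matrix list.

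Cell type markers moved unevenly, and their counts stand against 14.7% of all genes higher and 15.4% lower. The erythroid sum separated the groups as given above, and the neutrophil sum did not. The neutrophil genes S100a8 (log2 FC 5.04 ± 0.62) and S100a9 (4.36 ± 0.59) rose, by 4.09 and 3.33 without replicate 13. Ctrl hearts had at most 1.41 and 2.09 CPM of them. Endothelial markers summed to 1241 to 1483 CPM in Ctrl hearts and 960 to 1697 CPM in Doxo hearts, with 3 of 12 higher and 2 lower. Mural cell markers summed to 766 to 1005 CPM and 374 to 918 CPM, with 2 of 9 lower. Atrial markers had a median sum of 3038 CPM in Ctrl and 81.7 CPM in Doxo hearts, and 3 of 8 were lower. In the hearts with high atrial marker counts their sum was 2988 to 6110 CPM in 8 Ctrl hearts and 1170.4 to 2311 CPM in 5 Doxo hearts, without overlap, and 6 of 8 were lower. In the other hearts it was 63.1 to 131 CPM in Ctrl and 53.3 to 378 CPM in Doxo hearts, with 2 markers higher and 0 lower.

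Some changes differed in size between the hearts with high and with low atrial marker counts, a difference that was not tested. The log2 FC of Pde4b was 0.74 in the high and 2.07 in the low class, that of Ankrd1 1.84 and 3.35, that of Mt2 3.27 and 5.07 and that of Socs3 3.26 and 5.02. Fhl1 (0.997) and Mt1 (2.26) were also over 1.5 times under their pooled fold in the high class. Among genes near 0 in Ctrl hearts the same held for Saa3 (6.02 and 11.01), Chil3 (5.51 and 8.24), Ngp (3.46 and 8.71), Ccno (4.74 and 6.27), S100a8 (3.25 and 6.02) and S100a9 (2.51 and 5.46), and in the high class for Cxcl2 (3.65), Hist1h4d (3.87) and Lcn2 (4.44). The globins, at -9.44 to -10.1 in the high class and -4.83 to -5.07 in the low class, and Alas2 (-6.73 in the high class) were lower where replicate 6, a heart of the low class, was absent. Doxo replicate 13, highest in Pde4b, Socs3, Chil3, Ngp, Cxcl2, S100a8 and S100a9, was in the low class with Myl4 at 93.1 CPM. That is close to the limit of 100 CPM. Replicates 5 (highest in Ankrd1, Mt1, Mt2, Saa3, Hist1h4d and Lcn2) and 4 (highest in Fhl1 and Ccno) were also in the low class. The part of these single hearts in the gaps between classes was not tested. Named genes near the fold limit also crossed it. Sc5d (-0.55) and Mrpl33 (0.54) were not called in the high class, and Mrps6 (-0.41) and Gata6 (0.46) were not called in the low class. Dcn was called higher in the high class (0.67), and Slc27a1 (0.63), Atf5 (-0.59) and Pcna (0.59) were called in the low class.

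**Figure D4:**
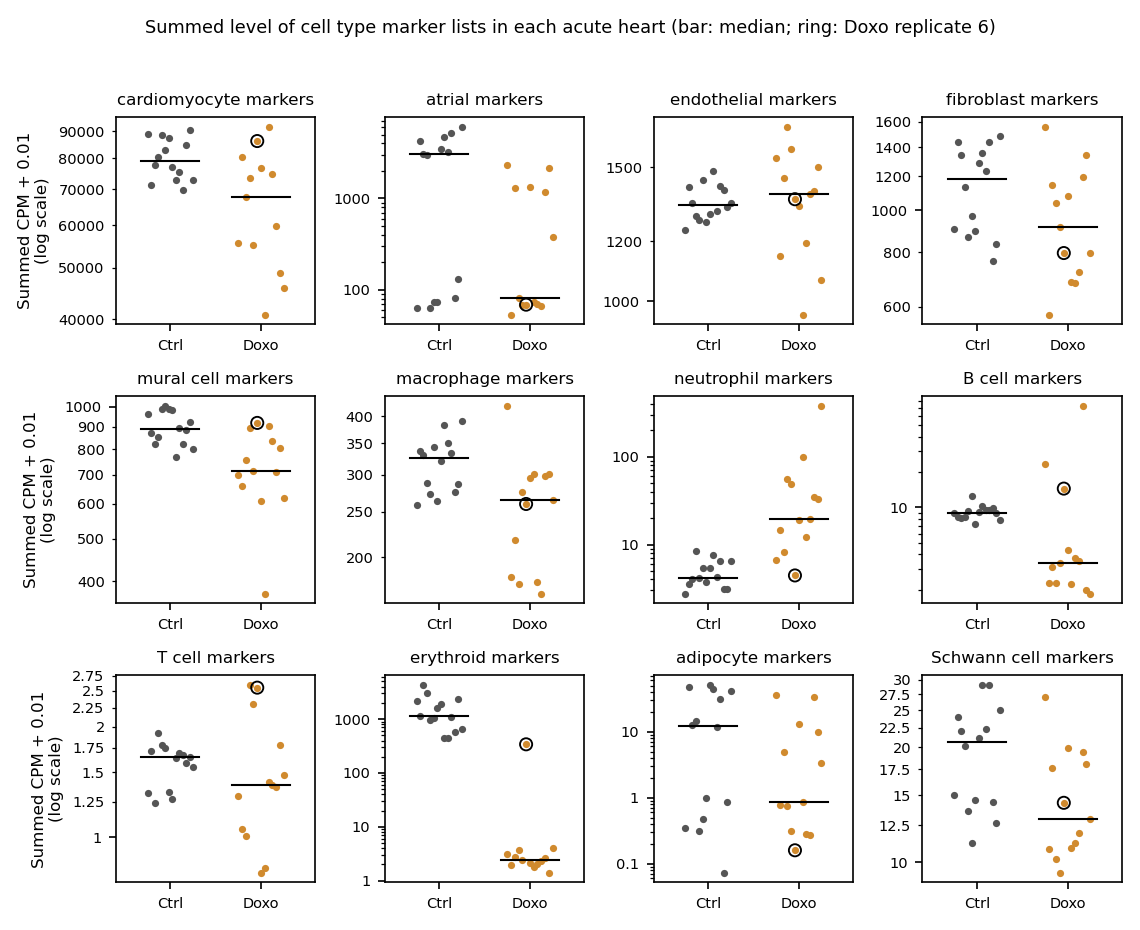
Summed CPM (log axis) of the markers of 12 cell types in each Ctrl and Doxo heart, 1 point per heart, with a bar at the median and a ring around Doxo replicate 6. The erythroid sum is 441 to 4340 CPM in Ctrl hearts, 1.38 to 4.08 CPM in 12 Doxo hearts and 341 CPM in replicate 6, and the neutrophil sum reaches 382 CPM in replicate 13.

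Doxo hearts differed more among themselves than Ctrl hearts did. The median SD of log2 CPM over called genes was 0.211 in Ctrl hearts, 0.462 in Doxo hearts and 0.398 in Doxo hearts without replicate 6. Over all tested genes it was 0.156, 0.305 and 0.284. Of the 2090 genes called higher, 40 had every Doxo heart above every Ctrl heart, and 785 (37.6%) had at least 12. Of the 2199 called lower, 56 and 744 (33.8%) did so on the other side. Over all tested genes the shares were 0.435% and 8.1% above and 0.471% and 6.84% below. The called genes were selected for a difference between these same hearts, so their larger shares are no separate result. The spread depended on the gene. Without replicate 6, the highest Doxo heart exceeded the lowest by 1.45 times in Man2a2, 1.56 times in Pcyox1 and 2.13 times in Adam22, but by 211 times in Serpina3f, 315 times in Cxcl2 and 687 times in Saa3. The lowest hearts held only 0.148 CPM of Serpina3f, 0.0991 CPM of Cxcl2 and 0.148 CPM of Saa3. These values are close to the floor of 3 counts, so the larger ratios are rough. Replicate 5 was the highest in Saa3, Serpina3f, Lcn2 and Hist1h4d, and replicate 13 in Chil3, Ngp and Cxcl2.

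Transcripts that are not protein-coding were changed as well. Of 66 long intergenic RNAs tested 21 were higher and 15 lower, and of 13564 protein-coding genes 1903 were higher and 2135 lower. Over all tested genes 14.7% were higher and 15.4% lower. Of 46 processed transcripts, the class of Mir22hg, 18 were higher and 9 lower. Of 87 antisense transcripts 27 were higher and 9 lower. The strand setting of the counting is not given in the sources used here, so an antisense transcript could not be told apart from its partner gene.

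The acute change was set against that in chronic hearts, which differ in dose schedule, time, age, mouse supplier and sequencing site, so these cannot be told apart. The difference of the 2 changes was tested over all genes for the 38 genes named by adjusted p-value, fold change or abundance, and 27 of them differed, against 19.3% of all genes tested. Since these genes were chosen for their acute change, the count says nothing on how often the studies differ. Mir22hg had a log2 FC of 0.69 ± 0.26 in chronic hearts (adjusted p = 0.567), and its acute change was larger by 2.25 ± 0.40 (adjusted p of the difference 0.00188). Syt12 differed by 3.12 ± 0.56. For Hbb-bs the chronic log2 FC was -0.16 ± 0.53, a difference of -5.68 ± 1.61 (adjusted p = 0.0153) that was -9.86 without acute Doxo replicate 6. Myh7 had the smallest adjusted p-value of the 31 of these genes that the chronic fit kept, 0.301, with a chronic log2 FC of 3.42 ± 0.83. It ranged from 652 to 23152 CPM in 6 chronic Doxo hearts and from 345 to 598 CPM in 5 Ctrl hearts. Most of the chronic Doxo mean of Myh7, 4656 CPM, came from the highest heart, and the fit was not repeated without that heart. The difference of Myh7, 1.04 ± 0.75, did not pass (adjusted p = 0.32). Those of Plin4 (0.88 ± 0.34), Tnnt2 (0.44 ± 0.21), Myh6 (-0.60 ± 0.32) and Oxct1 (-0.45 ± 0.27) did not pass either. Without acute Doxo replicate 6, the differences of Plin4 (0.96), Tnnt2 (0.49), Gsn (-0.86) and Serpina3f (5.81) did pass, so that 31 of the 38 differed. With 5 Ctrl and 6 Doxo chronic hearts a smaller difference may not have been detectable. In chronic hearts edgeR placed 9 of 14960 genes past an adjusted p-value of 0.05 and 1174 past an unadjusted one. That chronic fit, which also gave the chronic log2 FC values above, held the chronic Doxo-NMN hearts as well.

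**Figure D5:**
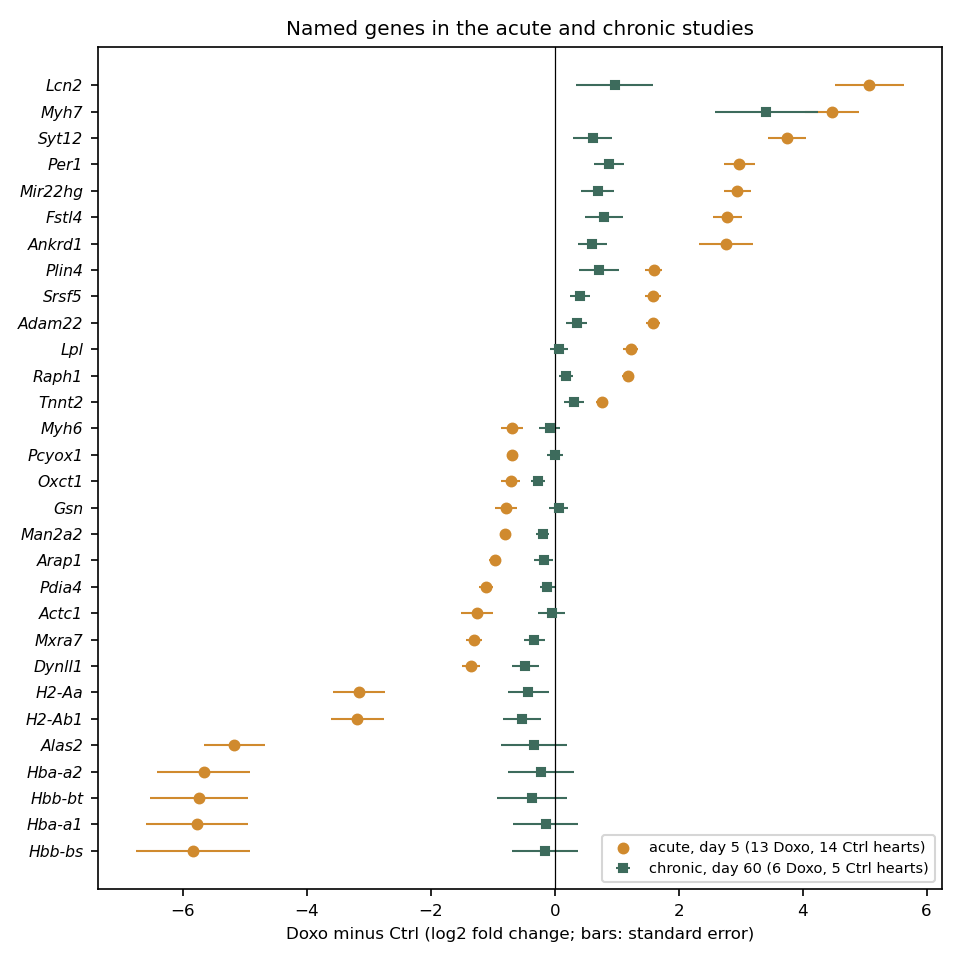
Log2 fold change of Doxo over Ctrl (horizontal, bars are standard errors) in acute hearts (circles) and chronic hearts (squares) for 30 of the 31 named genes fitted in both. The chronic change is nearer to 0 than the acute one in every gene shown. Among chronic values Myh7 stands apart at 3.42 ± 0.83, where most of the chronic Doxo mean came from 1 heart.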

How the data were processed

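Poly(A) RNA of all 57 hearts was used, of which 40 were acute. The test of a difference between studies used the 11 chronic Ctrl and Doxo hearts. Chronic log2 FC values and their p-values came from a fit that also held the chronic Doxo-NMN hearts. The deposited values are whole-number counts per gene that the authors made with STAR and featureCounts on mm10. The methods and the submitters' processing notes name different STAR versions (the notes give 2.7.3a; featureCounts 2.0.0), and no normalization was applied. Low counts (1 to 20) were even in a median of 73.6% of cases in Ctrl hearts and 73.2% in Doxo hearts, so counts divided by 2 were an alternative. All 25416 genes and all sample columns were read (0 unused). No 2 hearts within the acute Ctrl group, or within the acute Doxo group, agreed within sampling noise. Hearts of different groups, and so Doxo replicate 6 and the Ctrl hearts, were not compared in this way.

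Counts were TMM-normalized and filtered with filterByExpr in R 4.3.3, and tested with edgeR 4.0.16 (quasi-likelihood F-test, 3 acute groups, no block), with Benjamini-Hochberg adjustment. A call needed an adjusted p-value below 0.05 together with a change of 1.5 times or more. The SE was computed here as the absolute log2 FC divided by the square root of the F statistic of the test. It is rough for genes near 0 in Ctrl hearts, whose log2 FC depends on the prior count. The difference between studies was the interaction of Doxo and study in a fit of 4 groups. The procedure was tested on simulated data. CPM used TMM-scaled library sizes, and the p-values rest on hearts from separate mice.

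The gene lists, markers and hearts described were chosen with earlier results of these data known. Genes were named by a rule. Leaving out those the study's text names, called genes with at least 5 CPM in the higher group were ranked, and in each direction the 8 with the smallest adjusted p, the 8 changed most and the 4 most abundant were taken, with up to 4 members per function list and 3 per marker list. Other genes named are those that a list's single exception or a printed promoter singles out, chosen after their values were seen. Sequences come from RefSeq (GRCm38.p6), whose promoter table covered 75.9% of tested genes. Positions and gene types come from GENCODE M21, matched by symbol for 14174 genes.

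Alternatives were DESeq2 1.42.0, RLE factors, limma 3.58.1 voom with sample weights, other filters and fold limits, counts divided by 2, only the Ctrl and Doxo hearts, both atrial classes, a replicate block and leaving out each heart. Equal replicate numbers did not pair hearts. The Doxo-NMN comparisons were not used here. Some genes of the lists and of the rule for named genes are not reported here.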

Additional observations from a re-analysis of the deposited data

Results flagged for a closer look

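The Doxo effect differed between the acute and the chronic study in 27 of the 38 genes tested by name, by the test of the difference itself in edgeR (19.3% of all genes passed it). The studies differ in several respects besides the drug schedule, which cannot be told apart, and the genes had been chosen for their acute change. The gap of the highest or lowest heart was not tested gene by gene in groups of 13 and 14 hearts, since the limits used cover 4 to 10 samples, and Doxo replicate 6 was set apart by its position over all called genes.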

How the results depend on the processing

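Limits: 1 heart labelled Doxo resembled Ctrl hearts, and the fold change of genes near 0 in Ctrl hearts depends on the prior count. Without a filter on low counts 6283 genes were called, 3655 of them higher and 2628 lower, so 58.2% of the calls were higher against 48.7% in the reported fit. Without a fold limit 9694 were called (4953 higher, 4741 lower), and with a limit of 2 1848 (933 higher, 915 lower). Leaving out each of the 27 hearts gave 4052 to 4758 called, 1939 to 2316 higher and 2092 to 2442 lower. The number of named genes that differed between the studies was 31 without Doxo replicate 6 and 23 with at least 10 counts in every heart. DESeq2 called 4311 genes, voom 4447, the hearts with low atrial marker counts 4282 and those with high counts 4208. With only the Ctrl and Doxo hearts in filter, normalization and fit, 13885 genes were tested and 4091 called. With the replicate number as a block 4242 genes were called (1963 higher, 2279 lower), and 94.7% of the reported calls remained. The replicate numbers did not pair the hearts. Deviations of same-numbered hearts correlated at -0.544 to 0.437 over 13 pairs (median -0.139), over 0.1 in 3, and 2 of 13 Doxo hearts correlated best with their own number. Of the 38 genes chosen by p-value, fold or abundance 36 kept their call in every alternative that tested them, and of 128 called genes named in all, 120. Not every alternative tested them all. At least 10 counts in every heart left 25 of the 38 and 112 of the 128. Only the Ctrl and Doxo hearts left 34 and 124, and counts divided by 2 left 35 and 125. The genes left out there had low counts, and their calls were not checked by those alternatives. The 80 list counts stayed within 1.5 times in 61 under the high and 65 under the low atrial class and in 77 without Doxo replicate 6.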
